A study of Petunia x hybrida with 32 samples.

Results

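Leaves of Petunia x hybrida cv. Mitchell Diploid that received no added salt were compared between 2 hours of one experiment, 24 h against 6 h. The samples were chosen by their labelled treatment and hour and by no measured value. They make up 6 of the 15 biological replicates and 11 of the 28 libraries used from the table of expression values, with 3 replicates in 6 libraries at 24 h and 3 replicates in 5 libraries at 6 h. The control plants stood in Hoagland's solution without NaCl, in a chamber with 12 h of light per day, and each replicate was a pool of recently expanded leaves of 3 plants. Control leaves taken at 0 h (3 replicates) are given as a level beside the others, since 0 h and 24 h are the same hour of the day 1 day apart. Salt-treated leaves of the same cultivar, given 150 mM NaCl and taken at 24 h and 6 h (3 replicates each), served for a second comparison between the hours in other plants. The methods read as if the same plants gave leaves at each hour, so the hour, 18 h of age and an earlier removal of leaves cannot be told apart. The hour of the day at which the experiment began is not given in the sources used here.

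Many plant transcripts cycle once per day. A central oscillator of morning-expressed MYB-like factors and of pseudo-response regulators that follow them through the day repress each other, and they set the phase of genes of photosynthesis, starch turnover, cell division and hormone response. Leaves store part of the carbon fixed in the light as transitory starch in the chloroplast and break it down in the dark, so starch enzymes are a common readout of the phase of a leaf.

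The values are read rates (RPKM, reads scaled to the total of the library and to the length of the transcript) for transcripts assembled without a genome. A component is a group of assembled transcripts that stands for about 1 gene, and its numbered transcripts (isoforms) share reads, so their values are not independent of each other. Fold changes are given as log2(RPKM + 1) at 24 h minus that at 6 h, which understates the change of transcripts at low RPKM, and adjusted p-values come from limma over all transcripts tested. Of the 4658 transcripts tested, 597 were called higher at 24 h (12.8%) and 920 were called lower (19.8%), at a false discovery rate (FDR) of 0.001 and at least 2-fold. They belonged to 468 components called higher and 649 called lower. At least 4-fold differences were found for 262 of those called higher and 398 of those called lower, and at least 8-fold differences for 58 and 98 of them. Without the fold minimum and at an FDR of 0.05, 1274 transcripts were higher at 24 h (27.4%) and 1594 were lower (34.2%), 61.6% in all, and these are the shares against which the gene lists are read. The 3 replicates of one hour all lay above the 3 of the other for 61.7% of the tested transcripts. The table itself holds 4767 transcripts, and how they were chosen from the assembly is not given in the sources used here, so the shares describe this table and not the whole leaf transcriptome.

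**Figure D1:**
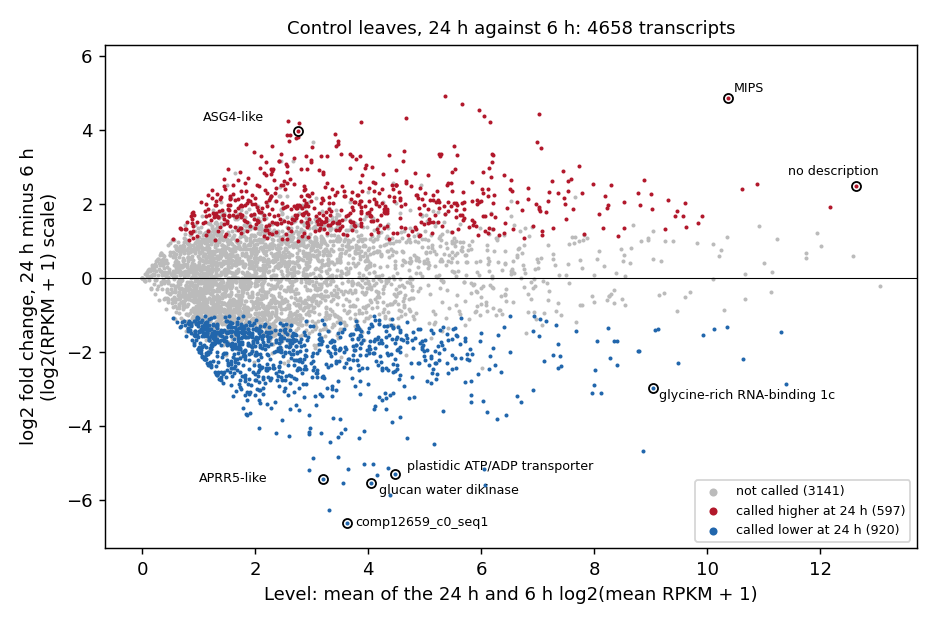
Each point is 1 of the 4658 transcripts tested. The x axis gives its level, the mean over the 24 h and 6 h groups of log2(mean RPKM + 1), and the y axis its log2 fold change, 24 h minus 6 h; red points are the 597 called higher at 24 h, blue points the 920 called lower, and named transcripts are ringed. The lowest points reach -6.61 and the highest 4.91.

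The median level over the tested transcripts was lower at 24 h than at 6 h, while the median change per transcript was small. The median of log2(RPKM + 1) over the tested transcripts was 2.08 to 2.22 in the 24 h replicates, against 2.37 to 2.43 in the 6 h replicates, and the median log2 fold change was -0.08. After the median of each replicate was set to one value, the median log2 fold change became 0.18, and 833 transcripts were called higher and 713 lower, so that 53.9% of the called transcripts were higher in place of 39.4%. The split between higher and lower calls therefore depended on the scaling. All 597 transcripts called higher and 713 of the 920 called lower were also called under that scaling. Transcripts called higher had a median mean level of 12.6 RPKM and those called lower 5.85 RPKM, against 4.43 RPKM over all tested. Summed RPKM per library was 193593 to 235898 at 24 h and 148400 to 223217 at 6 h, and 376 to 676 transcripts were listed at 0 at 24 h against 189 to 449 at 6 h. Replicate 2 at 6 h rests on 1 library; without it, 445 transcripts were called higher and 725 lower.

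The transcripts annotated as clock components stood apart from the rest at both ends of the scale. Of 14 tested, in 4 components, 13 were higher at 24 h and 1 was lower, with a median log2 fold change of 3.24. Counted by component, 3 were higher and 1 was lower. ASG4, a MYB-like factor that belongs to the morning-expressed REVEILLE family in Arabidopsis, was represented by 8 isoforms. Its isoform comp25149_c0_seq7 had 25.2, 24.0 and 28.9 RPKM at 24 h, against 0.73, 0.46 and 0.955 RPKM at 6 h. The log2 fold change was 3.98 ± 0.20 (SE, n = 3 each, adjusted p = 7.2e-10). Its 3 values at 24 h were far above those at 6 h, and the other 7 isoforms had log2 fold changes of 3.14 to 3.80. At 0 h the same isoform had 17.2, 20.2 and 19.3 RPKM, nearer to its level at 24 h than to that at 6 h.

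APRR5, a pseudo-response regulator that represses the morning factors in Arabidopsis, had the opposite pattern. Its transcript comp15361_c0_seq2 had 0, 0.475 and 0.67 RPKM at 24 h, against 35.2, 59.5 and 86.8 RPKM at 6 h. The log2 fold change was -5.42 ± 0.31 (SE, adjusted p = 2.33e-09), the lowest among the described transcripts apart from glucan water dikinase. The 3 values at 6 h differed among themselves by more than 2-fold, yet the groups were far apart. At 0 h the transcript stood at 2.41, 1.54 and 2.18 RPKM. A transcript named for the Arabidopsis locus At5g37260, a further MYB-like factor of the REVEILLE family, had 3.34, 2.34 and 3.93 RPKM at 24 h (comp24182_c0_seq6, adjusted p = 7.42e-07) and was listed at 0 in all 3 replicates at 6 h, so no fold is given.

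Light signalling transcripts, 20 in 12 components, were higher at 24 h in 12 cases and lower in 4, which by component was 6 higher and 3 lower. Phytochrome B, a red-light receptor, had 11.6, 10.9 and 11.9 RPKM at 24 h, against 1.8, 3.04 and 2.04 RPKM at 6 h (comp17278_c0_seq1, log2 fold change 1.94 ± 0.21, adjusted p = 1.6e-06). Its 4 isoforms were all higher at 24 h, with log2 fold changes of 1.6 to 1.94. A B-box zinc finger protein described as salt tolerance-like (At1g78600), a group of light-response regulators, had 20.2, 21.4 and 25.2 RPKM at 24 h, against 0.72, 0.61 and 0.47 RPKM at 6 h (comp14982_c0_seq2, log2 fold change 3.86 ± 0.20, adjusted p = 1.24e-09). Neither transcript had replicates that overlapped between the hours. None of the 1517 called transcripts did, but they were called from these same values, and 61.7% of all tested had no overlap.

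CONSTANS-like 14, a zinc finger protein of the family of the flowering regulator CONSTANS, went the other way. It had 0.215, 0.30 and 0.425 RPKM at 24 h, against 9.62, 9.78 and 17.6 RPKM at 6 h (comp21807_c0_seq1, log2 fold change -3.29 ± 0.24, adjusted p = 3.12e-08). COP1, the ubiquitin ligase that removes light-response factors in the dark, was split between 2 components, with comp15739_c0_seq1 higher (16.9 RPKM at 24 h against 6.17 RPKM at 6 h, log2 fold change 1.35) and comp6577_c0_seq2 lower (1.94 RPKM at 24 h against 5.18 RPKM at 6 h, log2 fold change -1.11). The 2 described isoforms of a protein for chloroplast movement under blue light (comp22640) were lower, with log2 fold changes of -1.91 and -1.24. The light-inducible bZIP factor CPRF2 (comp26176_c0_seq6) had 76.4, 95.3 and 42.3 RPKM at 24 h, against 18, 10.1 and 11.6 RPKM at 6 h. Each of its values at 24 h was above those at 6 h (log2 fold change 2.3 ± 0.33, adjusted p = 2.19e-05).

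**Figure D2:**
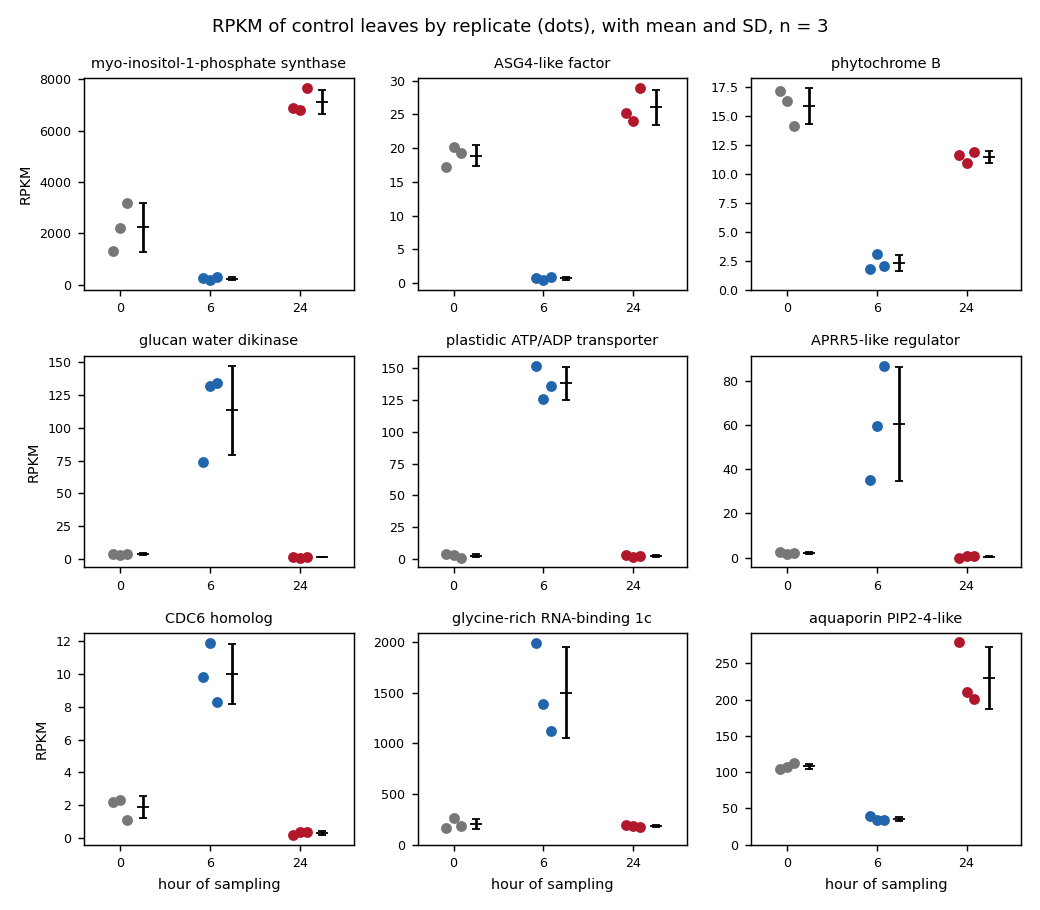
RPKM (y axis, linear, scaled per panel) of 9 transcripts in control leaves at 0, 6 and 24 h (x axis); dots are the 3 replicates, and the bar beside them is the mean with its SD. In each panel the 24 h and 6 h replicates do not overlap: 4 transcripts are high at 24 h and 5 are high at 6 h.

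Starch metabolism was lower at 24 h in 10 of 13 transcripts and higher in 3, with a median log2 fold change of -1.97. Counted by component, 4 were lower and 2 higher of 6. Glucan water dikinase, which phosphorylates starch at the start of its breakdown, had the largest fall of the list. Its isoform comp15987_c0_seq1 had 1.58, 1.14 and 1.46 RPKM at 24 h, against 73.8, 132 and 134 RPKM at 6 h. All 4 isoforms of the component were lower, with log2 fold changes of -5.16 to -5.53 (adjusted p = 2.29e-10 for comp15987_c0_seq1). The level at 0 h was 3.92, 2.76 and 4.15 RPKM, above that at 24 h (24 h minus 0 h -0.94, adjusted p = 0.0073) and far below that at 6 h.

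The plastidic ATP/ADP transporter, which carries ATP into the chloroplast when photosynthesis does not supply it, fell with it. It had 3.32, 1.76 and 2.65 RPKM at 24 h, against 152, 126 and 136 RPKM at 6 h (comp16973_c0_seq2, log2 fold change -5.30 ± 0.29, adjusted p = 1.64e-09). A second isoform, comp16973_c0_seq1, had a log2 fold change of -3.75. The maltose exporter of the chloroplast envelope, which releases the product of starch breakdown, had 15.8, 14.6 and 22.4 RPKM at 24 h, against 69.1, 72.0 and 70.6 RPKM at 6 h (comp12977_c0_seq1, log2 fold change -1.97 ± 0.19, adjusted p = 4.48e-07). The isoamylase comp12117_c0_seq2, a debranching enzyme, was lower to a smaller degree (25 RPKM at 24 h against 47.2 RPKM at 6 h, log2 fold change -0.88). The 3 transcripts that were higher at 24 h were 2 isoforms of an alpha-amylase (log2 fold changes 0.78 and 0.97) and a starch synthase (1.18). Without replicate 2 at 6 h, 1 transcript of the list was higher.

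The list of sucrose, raffinose, trehalose and inositol enzymes held the highest fold changes at 24 h. Of 28 transcripts 6 were higher and 18 lower, and 16 of the lower ones were isoforms of a single sucrose-phosphate synthase component (comp25892) with log2 fold changes of -0.97 to -1.33. Counted by component, 6 were higher and 3 lower. Myo-inositol-1-phosphate synthase (MIPS), the first enzyme of inositol synthesis, had 6880, 6790 and 7660 RPKM at 24 h, against 253, 189 and 295 RPKM at 6 h (comp12425_c0_seq1). Its log2 fold change was 4.87 ± 0.28 (SE, adjusted p = 2.45e-09) and no replicate at 6 h came near those at 24 h. The level at 0 h was between the others, at 1300, 2220 and 3190 RPKM.

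Transcripts of a second inositol-3-phosphate synthase component moved in parallel. They had 244, 207 and 197 RPKM at 24 h, against 9.82, 7.26 and 3.20 RPKM at 6 h (comp13205_c1_seq1, log2 fold change 4.91 ± 0.28, adjusted p = 2.33e-09), and the related comp13205_c0_seq1 had a log2 fold change of 4.70. Trehalose-phosphate phosphatase, the last step of trehalose synthesis, had 21.5, 16.9 and 16.8 RPKM at 24 h, against 1.86, 1.5 and 1.22 RPKM at 6 h (comp17913_c0_seq1, log2 fold change 2.94 ± 0.23, adjusted p = 4.79e-08). Vacuolar invertase, which splits sucrose in the vacuole, was also higher (comp25265_c0_seq2, 146 RPKM at 24 h against 27.1 RPKM at 6 h, log2 fold change 2.39). A galactinol-sucrose galactosyltransferase of raffinose synthesis was lower (comp6619_c0_seq1, 1.56 RPKM at 24 h against 15.1 RPKM at 6 h, log2 fold change -2.70).

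Sugar transporters were lower at 24 h in 8 of 12 transcripts and higher in 2, which by component was 4 lower and 2 higher of 7. SWEET2a, a member of the SWEET family of sugar carriers, had 34.0, 16.4 and 18.7 RPKM at 24 h, against 178, 124 and 51.5 RPKM at 6 h (comp22595_c0_seq1, log2 fold change -2.2 ± 0.36, adjusted p = 9.46e-05), and its 6 h replicates varied more than 3-fold. SWEET1 (comp15567_c0_seq1) had 5.52, 5.98 and 6.62 RPKM at 24 h, against 23.9, 26.3 and 22.7 RPKM at 6 h, with little spread in either group (log2 fold change -1.85). The 4 isoforms of an ERD6-like sugar transporter (comp23897) were lower by log2 fold changes of -1.39 to -1.67. The inositol transporter 2 (comp10770_c0_seq1) was higher, at 29.3, 39.0 and 44.3 RPKM at 24 h against 10.3, 8.37 and 9.84 RPKM at 6 h.

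Among the chloroplast functions, the Calvin cycle and photorespiration list was lower at 24 h in 6 of 12 transcripts and higher in none. With the scaling to one median 3 were higher and 6 lower, and without replicate 3 at 6 h 2 were higher. CP12, a small protein that holds Calvin cycle enzymes in an inactive complex in the dark, had 688, 739 and 630 RPKM at 24 h, against 1990, 1620 and 1770 RPKM at 6 h (comp16126_c0_seq2, log2 fold change -1.39 ± 0.18, adjusted p = 1.09e-05). All 4 chlorophyll and carotenoid transcripts were lower, including 2 isoforms of FLU, an inhibitor of chlorophyll precursor synthesis, at 17.8, 9.67 and 14.5 RPKM at 24 h against 64.3, 86.0 and 73.1 RPKM at 6 h (comp11029_c0_seq1, log2 fold change -2.36). The photosystem and electron transport list, matched by words in the descriptions, was not lower: 3 of 6 were higher and none was lower. The larger set with the Gene Ontology term photosynthesis was lower in 28 of 46 transcripts and higher in 10. Ferredoxin I, the electron carrier after photosystem I, had 852, 673 and 474 RPKM at 24 h, against 380, 188 and 197 RPKM at 6 h (comp12521_c2_seq1, log2 fold change 1.42, adjusted p = 0.00108). Chlorophyll-binding antenna protein comp25306_c0_seq3, a defining transcript of leaves, stood at 4820, 3960 and 3470 RPKM at 24 h and 4010, 2460 and 2250 RPKM at 6 h, values that overlap (log2 fold change 0.53, adjusted p = 0.0792). It passed the FDR of 0.05 with the scaling to one median and without replicate 1 at 6 h.

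Heat shock proteins and chaperones were divided, with 6 of 15 transcripts higher at 24 h and 7 lower. Of those that were lower, 5 were near 0 at 24 h. The transcript described as heat shock protein binding had 1.38, 1.04 and 1.06 RPKM at 24 h, against 38.0, 47.5 and 52.3 RPKM at 6 h (comp11319_c0_seq2, log2 fold change -4.43 ± 0.25, adjusted p = 2.33e-09). A chaperonin-like protein had 3.39, 2.18 and 0.62 RPKM at 24 h, against 50.2, 43.0 and 46.9 RPKM at 6 h (comp12122_c0_seq1, log2 fold change -4.07 ± 0.29). The chloroplast chaperonin 60 beta subunit, which folds proteins in the stroma, had 1.36, 1.32 and 0.765 RPKM at 24 h, against 23.0, 30.8 and 27.5 RPKM at 6 h (comp10819_c0_seq2, log2 fold change -3.71 ± 0.23). In these transcripts the 24 h values were within a few RPKM of 0 and no replicate came near the 6 h level.

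Further chaperones went in opposite directions. HSP83, of the HSP90 family, was lower (comp26507_c0_seq2, 15.9 RPKM at 24 h against 63.8 RPKM at 6 h, log2 fold change -1.94 ± 0.27). The abundant 70-kDa heat shock protein was higher, at 1530 RPKM at 24 h against 547 RPKM at 6 h (comp26529_c0_seq1, log2 fold change 1.49), as was the heat stress factor B-2a, a heat shock transcription factor (comp11409_c0_seq1, 63.1 RPKM at 24 h against 10.4 RPKM at 6 h, log2 fold change 2.49). The lowest fold changes of the whole table belonged to both isoforms of component comp12659, which carry no description in the annotation table. Isoform comp12659_c0_seq1 had 0.415, 0 and 0.335 RPKM at 24 h, against 114, 104 and 143 RPKM at 6 h (log2 fold change -6.61 ± 0.21, adjusted p = 1.52e-11). The study describes both as small heat-shock proteins, chaperones that keep unfolded proteins from aggregating. At 0 h the first of them was also near 0, at 0.13, 0.185 and 0.16 RPKM.

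All 7 glycine-rich RNA-binding transcripts, in 3 components, were lower at 24 h, with a median log2 fold change of -2.98; relatives of these proteins in Arabidopsis cycle daily and regulate splicing. The abundant comp24672_c1_seq3 had 198, 183 and 174 RPKM at 24 h, against 1990, 1390 and 1120 RPKM at 6 h (log2 fold change -2.98 ± 0.24, adjusted p = 6.46e-08). A second component had 3.04, 2.96 and 1.92 RPKM at 24 h, against 71.0, 62.0 and 54.6 RPKM at 6 h (comp22732_c0_seq2, log2 fold change -4.13 ± 0.30). At 0 h they had 165 to 260 RPKM and 2.14 to 5.11 RPKM, values that overlap those at 24 h.

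Of 13 splicing transcripts 11 were lower and 1 higher, which by component was 3 lower and 1 higher of 5, and 10 of the lower ones were isoforms of 2 components for the splicing of group IIA introns in the chloroplast (comp23047 and comp22131, log2 fold changes -1.33 to -2.72). The serine/arginine-rich splicing factor 7 (comp12216_c0_seq1) was the transcript that was higher, at 22.8, 26.9 and 32.2 RPKM at 24 h against 7.77, 4.83 and 5.82 RPKM at 6 h. Pentatricopeptide repeat proteins, which process RNA in chloroplasts and mitochondria, were lower in 10 of 11 cases, with a median of -1.21. Among them comp15866_c0_seq1 had 106, 214 and 118 RPKM at 24 h, against 899, 561 and 493 RPKM at 6 h (log2 fold change -2.17 ± 0.29, adjusted p = 1.32e-05). The second isoform of that component was among the most abundant called transcripts, at 506, 1150 and 619 RPKM at 24 h against 4780, 2810 and 2500 RPKM at 6 h.

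Transcripts of DNA replication were lower at 24 h in 17 of 18 cases, in 11 of 12 components, with none higher and a median log2 fold change of -1.94. They load and start the replication machinery: the licensing factors CDC6, CDT1 and MCM, the origin recognition complex, primase, polymerase alpha and replication protein A. CDC6 had 0.17, 0.345 and 0.375 RPKM at 24 h, against 9.84, 11.9 and 8.28 RPKM at 6 h (comp20006_c0_seq1, log2 fold change -3.07 ± 0.23, adjusted p = 3.31e-08). MCM2, a subunit of the replicative helicase, had 1.14, 0.83 and 0.975 RPKM at 24 h, against 8.99, 18 and 11.4 RPKM at 6 h (comp9318_c0_seq1, log2 fold change -2.75 ± 0.27). The replication protein A 70 kDa subunit, which covers single-stranded DNA, had 0.14, 0.47 and 0.43 RPKM at 24 h, against 3.72, 8.02 and 5.04 RPKM at 6 h (comp25213_c0_seq3, log2 fold change -2.25 ± 0.23). The levels were low at both hours, at most 12.8 RPKM on average at 6 h, and the transcript that did not pass the test was a polymerase delta subunit (comp10944_c0_seq1, log2 fold change 0.19, adjusted p = 0.621).

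DNA repair and recombination was lower in 6 of 9 transcripts. The mismatch repair endonuclease PMS2 had 0.51, 0.43 and 0.725 RPKM at 24 h, against 2.90, 5.50 and 5.04 RPKM at 6 h (comp7133_c0_seq1, log2 fold change -1.79 ± 0.24). The 2 transcripts of the list that were higher at 24 h were isoforms of a (6-4) photolyase, a light-driven repair enzyme (comp7726, log2 fold changes 1.30 and 1.40). Ribosome biogenesis was lower in all 17 transcripts tested, in 13 components, with a median of -1.51; nucleolin, a protein of the nucleolus, had 0, 0.995 and 2.28 RPKM at 24 h against 21.4, 23.6 and 13.8 RPKM at 6 h (comp24031_c0_seq3, log2 fold change -3.43 ± 0.36, adjusted p = 1.2e-06). Ribosomal proteins themselves were mixed, with 2 of 13 higher and 4 lower.

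These are values of whole leaves, in which fewer cells of a type and less RNA per cell cannot be told apart. Of the 3 markers of dividing cells tested, 2 isoforms of cyclin A2, a cyclin of the phases of DNA synthesis and mitosis, were lower at 24 h (comp25876_c0_seq4, 0.755, 1.32 and 1.64 RPKM, against 6.06, 3.67 and 3.68 RPKM at 6 h) and an aurora kinase did not pass the test. Their summed level was 2.94 to 3.49 RPKM at 24 h and 6.13 to 11.8 RPKM at 6 h. Among lists written for other tissues, not all differed between the hours. The xylem and lignin list was higher in 5 of 7 (3 with HPLC libraries only) and lower in 1, with a summed level of 242 to 266 RPKM at 24 h and 69.5 to 84.5 RPKM at 6 h. The epidermis list matched a single transcript, a lipid-transfer protein that is not one of the cuticle genes the list was written for. It is therefore not read as an epidermis marker. Its level was 125 to 194 RPKM at 24 h and 32.1 to 79.0 RPKM at 6 h. The 3 flavonoid and anthocyanin transcripts, of a list written for petal pigment, summed to 27.9 to 42.6 RPKM at 24 h and 9.77 to 11.1 RPKM at 6 h. Of these 2 were higher at 24 h at an FDR of 0.05 and 1 did not pass. The single phloem marker, the potassium channel AKT2/3, had 0, 1.14 and 1.5 RPKM at 24 h and 1.28, 2.58 and 2.20 RPKM at 6 h (comp23771_c0_seq1, adjusted p = 0.055, past an FDR of 0.05 without replicate 2 or 3 at 24 h or replicate 1 at 6 h). The lignin enzyme cinnamoyl-CoA reductase (comp18237_c0_seq1) was low at both hours, with 0.455, 0.76 and 0.405 RPKM at 24 h and 0 in all 6 h replicates. The part of tissue make-up in the differences between the hours was not tested.

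All 4 aquaporins were higher at 24 h, each in a component of its own. PIP2-4, a water channel of the plasma membrane, had 279, 210 and 201 RPKM at 24 h, against 39.0, 34.6 and 33.4 RPKM at 6 h (comp16298_c1_seq1, log2 fold change 2.64 ± 0.24, adjusted p = 2.57e-07). NIP6, whose Arabidopsis relative lets boric acid pass, had 6.86, 5.14 and 5.94 RPKM at 24 h, against 0.69, 0.65 and 1.03 RPKM at 6 h (comp21561_c0_seq2, log2 fold change 1.96). TIP4-1, a channel of the vacuolar membrane, differed less, at 40.2, 42.6 and 46.7 RPKM at 24 h against 29.0, 18.8 and 24.7 RPKM at 6 h (comp10877_c0_seq1, log2 fold change 0.83, adjusted p = 0.00508).

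Of 20 ion transport transcripts 9 were higher and 2 lower. A sulfate transporter had 239, 131 and 266 RPKM at 24 h, against 38.3, 32.2 and 44.0 RPKM at 6 h (comp26131_c1_seq3, log2 fold change 2.39 ± 0.26, adjusted p = 1.74e-06). A potassium transporter 11 was higher too (comp7592_c0_seq1, 16.1 RPKM at 24 h against 5.64 RPKM at 6 h, log2 fold change 1.33), and the sodium/proton exchanger comp16645_c0_seq1 was lower (16.6 RPKM at 24 h against 26.7 RPKM at 6 h, log2 fold change -0.65, adjusted p = 0.0139). In nitrogen and amino acid metabolism 8 of 27 were higher and 2 lower (4 lower without replicate 2 at 24 h). The share higher, 29.6%, was near the 27.4% over all tested transcripts. Pyrroline-5-carboxylate synthase, which makes the precursor of proline, had 102, 123 and 132 RPKM at 24 h, against 16.1, 13.3 and 17.3 RPKM at 6 h (comp11948_c0_seq1, log2 fold change 2.86 ± 0.21, adjusted p = 3.64e-08). Lipid metabolism, matched by words in the descriptions, was higher in 12 of 27 and lower in 3. The larger set with the Gene Ontology term lipid metabolic process had 27 of 90 higher and 48 lower. That is 53.3% lower, where 40.6% of all transcripts with such a term were lower, so the direction depended on the set.

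The ethylene, auxin and cytokinin lists held more transcripts that were higher at 24 h than lower. The ethylene list was higher in 7 of 13 and lower in none, with a median of 1.17. ACC oxidase, the enzyme that releases ethylene, had 80.6, 85.6 and 37.8 RPKM at 24 h, against 24.3, 13.5 and 30.5 RPKM at 6 h (comp16626_c1_seq1, log2 fold change 1.52 ± 0.39, adjusted p = 0.00314), so that the lowest value at 24 h was close to the highest at 6 h. In the auxin list 7 of 13 were higher and 4 lower (2 lower with the scaling to one median or without replicate 1 at 24 h). The SAUR transcript comp11877_c0_seq1, of a family of early auxin-response genes, was among the lower ones, at 0.807 RPKM at 24 h against 4.02 RPKM at 6 h. Cytokinin dehydrogenase 7, which breaks cytokinin down, had 12.2, 14.4 and 15.1 RPKM at 24 h, against 2.58, 2.64 and 2.96 RPKM at 6 h (comp14091_c0_seq2, log2 fold change 2.00 ± 0.19, adjusted p = 5.2e-07). The response regulator ARR18 was at the other end, with 0, 0.255 and 0 RPKM at 24 h, against 4.56, 5.27 and 4 RPKM at 6 h (comp10775_c0_seq2, log2 fold change -2.37). The abscisic acid list was made up of type 2C protein phosphatases, a family of which some members repress abscisic acid signalling, and had 9 of 24 higher, in 2 components, and 6 lower. The higher count was 4 without replicate 2 at 24 h and 5 without replicate 2 at 6 h.

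Protein kinases were lower in 37 of 87 transcripts and higher in 9 (median log2 fold change -0.36). The ubiquitin and proteasome list was lower in 23 of 57 and higher in 9 (median -0.49). The shares lower, 42.5% and 40.4%, were near the 40.6% of all transcripts with a Gene Ontology term. Over all tested transcripts 34.2% were lower. The shares higher were 10.3% and 15.8%, where 25.6% of those with such a term and 27.4% of all tested were higher. Under the scaling to one median the counts were 28 lower and 19 higher for the kinases and 21 lower and 16 higher for the ubiquitin list. The U-box ligase PUB52-like comp22429_c0_seq1 was listed at 0 in all replicates at 24 h and had 3.96, 5.97 and 5.71 RPKM at 6 h. MYB factors outside the clock were lower in 5 of 7, all in 1 component, and WRKY and NAC factors were higher in 5 of 13 and lower in 1. The 5 became 2 without replicate 1 at 6 h or with HPLC libraries only, and 3 without replicate 2 at 24 h or replicate 3 at 6 h, so this count rests on single replicates. The cell wall list was even, at 9 higher and 10 lower of 33, and its median of -0.18 became 0.07 under the scaling to one median, with 11 higher and 6 lower.

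Further described transcripts with large differences belonged to none of these groups or to single enzymes. Higher at 24 h were 4-hydroxyphenylpyruvate dioxygenase, an enzyme of tocopherol and plastoquinone synthesis (comp23645_c0_seq1, 150, 209 and 174 RPKM, against 24.9, 20.5 and 24.3 RPKM at 6 h), a haloacid dehalogenase-like hydrolase (comp13254_c0_seq1, 215, 218 and 211 RPKM, against 27.2, 25.2 and 19.0 RPKM at 6 h), a chloroplastic protein described only by the word phosphate (comp11950_c0_seq1, log2 fold change 4.22) and a DNA-binding protein (comp24416_c0_seq3, log2 fold change 2.65). Lower at 24 h was a germin-like protein, of a family of cell wall proteins, at 14.4, 23.2 and 22.1 RPKM against 282, 284 and 292 RPKM at 6 h (comp17090_c0_seq1, log2 fold change -3.81 ± 0.21, adjusted p = 2.33e-09). A terpene synthase described as making camphene and tricyclene, volatile monoterpenes, had 0.445, 0.69 and 0.225 RPKM at 24 h, against 17.3, 25.3 and 17.8 RPKM at 6 h (comp16984_c0_seq3, log2 fold change -3.85 ± 0.28). An alpha/beta-hydrolase (comp12892_c0_seq2) was lower as well, with a log2 fold change of -3.55. The replicates of the hours did not overlap in these transcripts, which was a condition for naming them and held for all 1517 called.

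Most called transcripts have no informative description: 26.5% of those called higher and 34.5% of those called lower have one, against 27.2% of all tested. The most abundant called transcript, comp28238_c0_seq1, is without one and had 16200, 13500 and 14500 RPKM at 24 h, against 3460, 2200 and 2400 RPKM at 6 h (log2 fold change 2.48 ± 0.23, adjusted p = 2.52e-07). Another, comp28262_c0_seq1, had 10300, 8340 and 7960 RPKM at 24 h, against 3100, 2200 and 1820 RPKM at 6 h. In the other direction comp28259_c0_seq1 had 1020, 764 and 1240 RPKM at 24 h, against 7800, 6720 and 7170 RPKM at 6 h (log2 fold change -2.86 ± 0.23).

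Transcripts described as genes often taken as constant controls, or as their relatives, differed between the hours. Of 10 tested, in 7 components, 7 were higher at 24 h (4 components) and 1 lower. The higher ones include an NADP-dependent glyceraldehyde-3-phosphate dehydrogenase (comp13444_c0_seq1, log2 fold change 2.51) and actin-related protein 8 (comp25989_c0_seq2, 1.04). Both are relatives of the usual controls, matched by words in the descriptions. An actin had 465, 307 and 319 RPKM at 24 h, against 91.2, 69.2 and 58.3 RPKM at 6 h (comp11968_c0_seq1, log2 fold change 2.3 ± 0.24, adjusted p = 1.01e-06). A glyceraldehyde-3-phosphate dehydrogenase was higher (comp12361_c0_seq1, 3110 RPKM at 24 h against 1210 RPKM at 6 h, log2 fold change 1.39) and a beta-tubulin was lower, at 94.0, 72.1 and 88.9 RPKM at 24 h against 175, 175 and 168 RPKM at 6 h (comp26516_c0_seq6, log2 fold change -1.02). The counts were the same, 7 higher and 1 lower, under the scaling to one median.

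Isoforms of 1 component seldom parted. In 1 component of the 1116 with a called transcript, isoforms were called in opposite directions. Its isoform comp22980_c0_seq1 had 5.48, 10.5 and 7.11 RPKM at 24 h, against 84.7, 90.4 and 64.2 RPKM at 6 h (log2 fold change -3.24), and comp22980_c0_seq2 had 5.03, 4.60 and 5.59 RPKM at 24 h, against 1.6, 0.82 and 1.62 RPKM at 6 h (log2 fold change 1.39). The assembled pair shares reads, and the count was 0 without replicate 2 at 6 h and 3 without replicate 3 at 24 h.

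**Figure D3:**
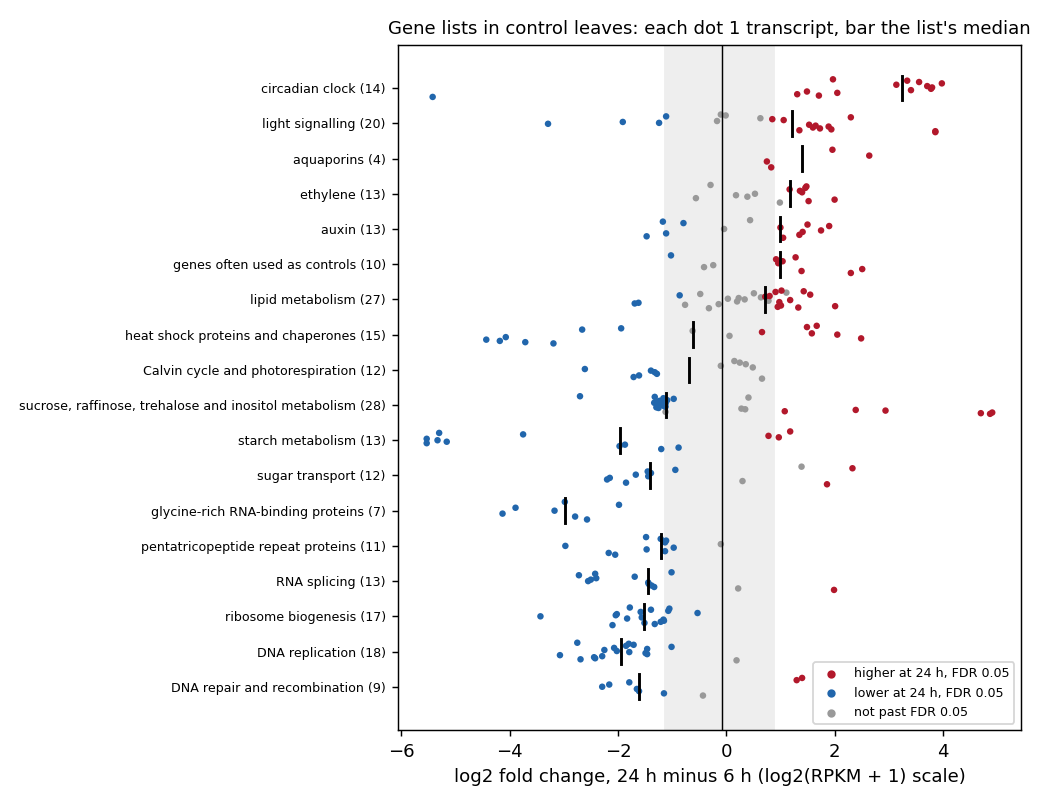
Log2 fold change, 24 h minus 6 h (x axis), of the transcripts of 18 gene lists (y axis, number tested in brackets); each dot is 1 transcript, red or blue where past an FDR of 0.05, black bars are list medians, and the grey band with its line spans the quartiles (-1.13 to 0.89) and the median (-0.08) of all 4658. The clock list has its median at 3.24 with APRR5 alone at the far left, and the replication and ribosome biogenesis lists lie left of the line but for 1 transcript.

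Salt-treated plants gave a second, separate set of leaves for the same pair of hours. Of the 597 transcripts called higher at 24 h in control leaves, 436 (73%) were also higher at 24 h in salt-treated leaves at an FDR of 0.05 and 14 were lower, where 28.3% of all tested transcripts were higher. Of the 920 called lower, 672 (73%) were lower in salt-treated leaves and 10 were higher, where 32.1% of all tested were lower. The median log2 fold change of these transcripts in salt-treated leaves was 1.23 for those called higher and -1.28 for those called lower, against -0.14 over all tested. In the clock list 13 of the 14 transcripts past the test in control leaves were also past it in the same direction in salt-treated leaves. So were 12 of 13 in starch metabolism and 7 of 7 among the glycine-rich RNA-binding proteins. These lists hold 4, 6 and 3 components, and isoforms of a component share reads, so the transcripts are not independent of each other. ASG4 (comp25149_c0_seq7) averaged 21.7 RPKM at 24 h and 1.13 RPKM at 6 h in salt-treated leaves.

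**Figure D4:**
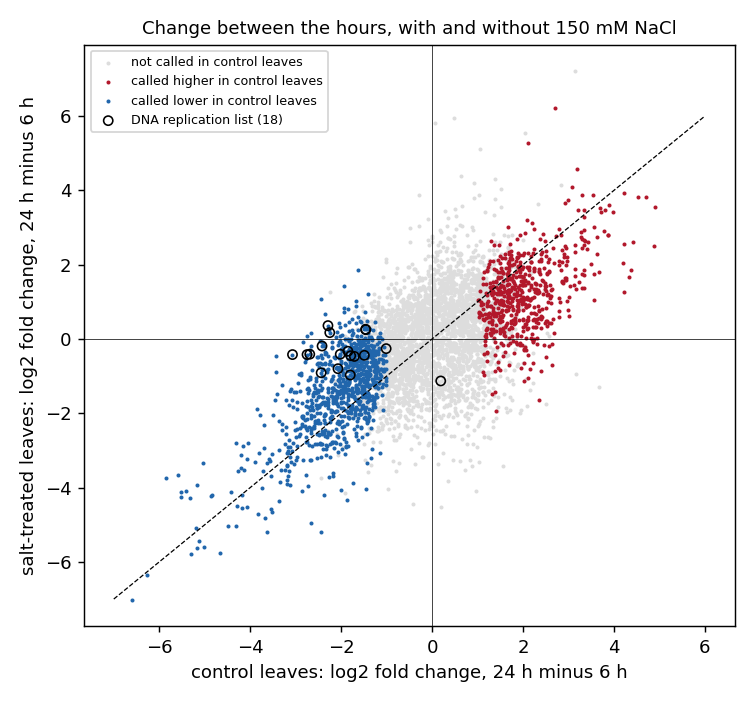
Log2 fold change, 24 h minus 6 h, of the 4658 transcripts in control leaves (x axis) and in salt-treated leaves (y axis); red and blue points are those called higher (597) and lower (920) in control leaves, black rings are the 18 transcripts of the DNA replication list, and the dashed line marks equal changes. The median of the red points on the y axis is 1.23 and that of the blue points -1.28, and the rings lie above the dashed line except for 1.

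The size of the change between the hours was then tested for a difference, as the change in salt-treated leaves minus that in control leaves. It differed at an FDR of 0.05 for 1505 of 4658 transcripts (32.3%), with 798 positive and 707 negative. Among those called higher in control leaves it differed for 240, of which 231 were negative, and among those called lower for 347, of which 319 were positive. The test uses the same control values as the calls, so these directions do not stand apart from how the transcripts were called.

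The DNA replication list did not keep its difference between the hours in salt-treated leaves to the same degree. In those leaves 4 of its 18 transcripts were lower at 24 h and none was higher, with a median log2 fold change of -0.42 in salt-treated leaves against -1.94 in control leaves, and the difference passed the test for 16. CDC6 (comp20006_c0_seq1) averaged 0.39 RPKM at 24 h and 0.873 RPKM at 6 h in salt-treated leaves, against 0.297 RPKM at 24 h and 9.99 RPKM at 6 h in control leaves, a difference of 2.65 (adjusted p = 0.000149). At 6 h the median log2 level of the list was 0.81 in salt-treated leaves and 2.80 in control leaves. Ribosome biogenesis was similar in count, with 2 of 17 lower in salt-treated leaves and a difference past the test for 14, and its median log2 level at 24 h was 1.65 in salt-treated leaves against 0.66 in control leaves.

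**Figure D5:**
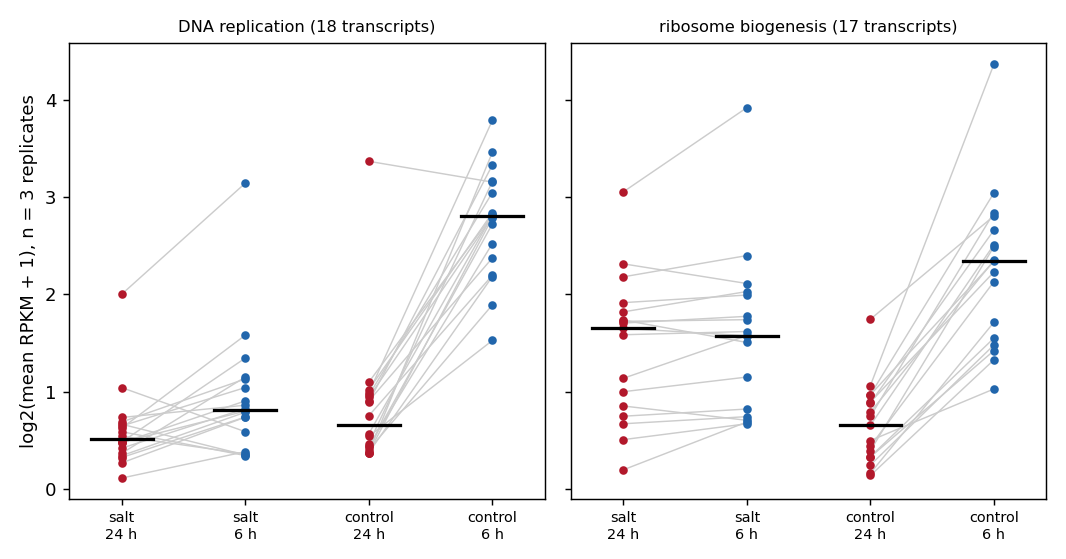
Level, as log2(mean RPKM + 1) over 3 replicates (y axis), of each transcript of the DNA replication list (left) and the ribosome biogenesis list (right) in salt-treated and control leaves at 24 h (red) and 6 h (blue); grey lines join the hours of 1 transcript and black bars are medians. The replication medians are 0.51 and 0.81 in salt-treated leaves at 24 h and 6 h and 0.66 and 2.80 in control leaves; those of ribosome biogenesis are 1.65 and 1.58 in salt-treated leaves and 0.66 and 2.34 in control leaves.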

How the data were processed

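RNA of pooled leaves was sequenced, in libraries with HPLC-purified and with desalted index primers; only the HPLC library served for replicate 2 in 2 groups, salt at 24 h and control at 6 h. Per their methods, the authors assembled reads with Trinity, estimated expression with RSEM and annotated transcripts with Blast2GO; the deposited values are RPKM per transcript and library, which are not counts, so the depth behind a value is unknown from them and no count test was run. Tool versions are not given in the sources used here. Groups came from the labels and column names. The labels give 5 salt samples at 24 h, fewer than the columns named for them, so 1 such column was not used. For control leaves at 6 h the labels give 6 samples and the table has 5 columns. The authors report that 1 control library at 6 h, with a desalted primer, failed. Labelled salt samples of 0 h were not analysed here. Libraries of 1 biological replicate were averaged, log2(RPKM + 1) was taken, and transcripts at 1 RPKM or more in at least 3 replicates were kept (109 were left out). All 5 groups were fitted with limma 3.58.1 in R 4.3.3, its prior variance following mean level, and Benjamini-Hochberg adjustment; the procedure was tested on simulated data. Calls needed an FDR of 0.001 and 2-fold; lists were read at an FDR of 0.05. Figures were drawn with matplotlib 3.10.9.

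Lists were made by words in the descriptions, and the named transcripts are the 12 highest and 12 lowest called with an informative description, the 4 smallest adjusted p-values of each list, the 8 most abundant called, the 4 highest and 4 lowest differences between treatments among called transcripts with an informative description, components with opposite isoforms, and the 2 highest and 2 lowest without a description, 1 per component. The 12 highest and 12 lowest also had to show no overlap between the replicates of the hours. Outside this rule, the polymerase delta subunit, 1 glyceraldehyde-3-phosphate dehydrogenase, both COP1, the sodium/proton exchanger, vacuolar invertase, the galactosyltransferase, the 70-kDa heat shock protein and isoforms given as ranges were chosen after their values were seen. The comparison, members and lists were chosen with earlier results of these data known. The jasmonate list and the list of cold and dehydration proteins had no member.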

Additional observations from a re-analysis of the deposited data

Results flagged for a closer look

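The difference between 24 h and 6 h was not the same in salt-treated and control leaves for 1505 transcripts at an FDR of 0.05, by a test of the difference itself (salt-treated minus control, limma). Given here are the 4 highest and 4 lowest differences among transcripts called in control leaves with an informative description, 1 per component. A SET-like protein (comp21515_c0_seq2) had a difference of 3.52 on the log2 scale, HSP83 (comp26507_c0_seq2) 3.36, a 60S ribosomal protein (comp22763_c0_seq3) 2.67 and CDC6 (comp20006_c0_seq1) 2.65. HSP83 averaged 54.5 RPKM at 24 h and 19.7 RPKM at 6 h in salt-treated leaves, against 15.9 RPKM at 24 h and 63.8 RPKM at 6 h in control leaves. The aquaporin PIP2-4 (comp16298_c1_seq1) had a difference of -2.78, a methyltransferase (comp16616_c0_seq1) -2.73, a trypsin proteinase inhibitor (comp25018_c0_seq1) -2.55 and the bZIP factor CPRF2 (comp26176_c0_seq6) -2.43. PIP2-4 averaged 50.3 RPKM at 24 h and 56.1 RPKM at 6 h in salt-treated leaves, against 230 RPKM at 24 h and 35.7 RPKM at 6 h in control leaves.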

How the results depend on the processing

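Calls at an FDR of 0.001 were fewest when the fit held the 24 h and 6 h control leaves alone, 311 higher and 438 lower, of which 309 and 438 were also called in the fit of all groups; at an FDR of 0.05 that fit gave 1163 and 1476. Leaving out 1 replicate gave 445 to 560 higher, 725 to 911 lower, and 0 to 3 components with opposite isoforms, a count that was 2 with the replicate block, 5 with each library as its own replicate and 0 when the fit held those groups alone. With HPLC libraries only, the change differed between treatments for 959 transcripts. The replicate block gave 559 higher and 821 lower. Replicate deviations at 24 h and 6 h with the same number correlated at 0.17, -0.204 and 0.186 across transcripts, and not each replicate correlated best with its own number. The deviations of 3 replicates from their own mean constrain each other, so these values cannot decide whether the numbers pair the samples. The block moved 3 named transcripts past an FDR of 0.05: comp25306_c0_seq3 (antenna protein, adjusted p = 0.03), comp23771_c0_seq1 (AKT2/3, 0.0354) and comp25973_c0_seq2 (MYB4-like, 0.0359). Among named transcripts, those that changed sign had not passed the test: comp10349_c0_seq1 (0.04 with each library as its own replicate, 0.04 with HPLC libraries only, 0.21 with the same median, -0.25 to 0.11 when replicates were left out), comp10033_c0_seq2 (0.05 with the same median, -0.37 to 0.01), comp26171_c0_seq3 (0.03 with the same median) and comp22415_c0_seq2 (-0.01 to 0.34). The cause was not tested.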

Other observations

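Gene Ontology (GO) terms of the annotation table covered 1411 tested transcripts, of which 25.6% were higher at 24 h and 40.6% lower at an FDR of 0.05 (limma). Against these shares, transcripts with the term transporter activity were higher in 40 of 96 cases and lower in 26, and those of the extracellular region were higher in 12 of 31 and lower in 3. Transcripts with the term cell cycle were lower in 24 of 30, DNA metabolic process in 35 of 51, reproduction in 28 of 39 and protein metabolic process in 47 of 76. Plastid transcripts were lower in 94 of 160 and thylakoid transcripts in 26 of 42. Response to stress was near even, with 41 of 137 higher and 44 lower. Terms overlap in their transcripts, and these counts were not tested.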
